A study of Mus musculus with 2 samples.

Results

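The CXCR3 and CXCR6 chemokine axes were followed through 5 genes: the ligand genes Cxcl9, Cxcl10 and Cxcl16 and the receptor genes Cxcr3 and Cxcr6. They were chosen by symbol, and all 5 were found among the 32285 genes measured. Single-cell RNA was counted in CD45+ immune cells sorted from subcutaneous tumours of wild-type BALB/c mice that carried MFC cells, a mouse forestomach carcinoma line. One group of mice received thonzonium bromide at 50 mg/kg every other day, starting on day 6, and was sacrificed on day 10. This compound is a quaternary ammonium surfactant that has been described as blocking vacuolar proton pumps. The other group received PBS, and both samples carry the same treatment text, so the treatment label alone sets the groups. There was 1 library a group, and how many mice entered each is not given in the sources used here. No difference below therefore has a replicate check or a test. The 95% intervals cover counting error only, and each ratio is thonzonium bromide over PBS.

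CXCL9 and CXCL10 are secreted chemokines that interferons induce in myeloid and stromal cells, and both bind CXCR3, a receptor of activated T cells and NK cells. CXCL16 is made as a membrane-anchored protein that proteases can shed, and it binds CXCR6, a receptor known from effector and tissue-resident lymphocytes. In tumours both axes are known for drawing in or holding lymphocytes near myeloid cells.

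After filtering, the treated library held 5833 cells with a median of 7259 UMIs (unique molecular identifiers, each a counted RNA molecule), and the PBS library 6419 cells with a median of 4300 UMIs. Cells were placed into gates by 15 lists of 6 marker genes that include none of the 5 members. A cell entered the gate whose list had the most markers detected, with at least 3. In the treated library 84.3% of cells were gated, and in the PBS library 68.5%. All 6 markers of the T, NK, B, monocyte, macrophage, neutrophil and migratory dendritic gates reached at least 50 CPM (UMIs of a gene per 1000000 UMIs of the gate) in both libraries. Cells entered these gates by the same markers, so this does not test the gates. Classical monocyte markers summed to 5793 CPM in the treated and 4151 CPM in the PBS macrophage gate. In the T gate they summed to 2714 and 2402 CPM. Ptprc, the gene of CD45, had a UMI in 95.4% of treated and 88.2% of PBS cells. Haemoglobin genes took 1.16% of treated and 8.64% of PBS UMIs. The gates differed in size between the libraries: classical monocytes numbered 1362 in the treated and 617 in the PBS library, macrophages 184 and 186, nonclassical monocytes 112 and 64, neutrophils 172 and 105, and migratory dendritic cells 51 and 56. The T gate held 1240 treated and 1394 PBS cells, and the NK gate 1128 and 1210. Only 9 kept barcodes occurred in both libraries.

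Cxcl9 (ENSMUSG00000029417) and Cxcl10 (ENSMUSG00000034855) lie on the reverse strand of chromosome 5, with 18558 bases between them (GRCm38; Cxcl9 at chr5:92321347-92328079, Cxcl10 at chr5:92346638-92348889). Cxcl16 (ENSMUSG00000018920) is at chr11:70453983-70459984, Cxcr3 (ENSMUSG00000050232) at chrX:101731535-101734269 and Cxcr6 (ENSMUSG00000048521) at chr9:123806475-123811760. Cxcl10 lies within Art3 and Cxcr6 within Fyco1, each on the opposite strand, and the 5′ end of Cxcl16 overlaps Zmynd15, also on the opposite strand. Over all kept cells Art3 had 99 UMIs in the treated and 64 in the PBS library, against 52696 and 29276 UMIs of Cxcl10. Fyco1 had 1233 and 1048 UMIs against 3130 and 1618 of Cxcr6, and Zmynd15 had 495 and 342 against 5015 and 2313 of Cxcl16. Whether the counting used strand is not given in the sources used here.

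The promoters of the 2 CXCR3 ligands are shown because these neighbouring genes behaved differently below. RefSeq sequences of 250 bases before to 50 after the gene start (GRCm38.p6) were at hand for 4 of the 5 members. They are given 5′ to 3′ on the gene's own strand, Cxcl10 from chr5:92348840-92349139 and Cxcl9 from chr5:92328030-92328329. Capitals mark matches to the motifs searched.
Cxcl10: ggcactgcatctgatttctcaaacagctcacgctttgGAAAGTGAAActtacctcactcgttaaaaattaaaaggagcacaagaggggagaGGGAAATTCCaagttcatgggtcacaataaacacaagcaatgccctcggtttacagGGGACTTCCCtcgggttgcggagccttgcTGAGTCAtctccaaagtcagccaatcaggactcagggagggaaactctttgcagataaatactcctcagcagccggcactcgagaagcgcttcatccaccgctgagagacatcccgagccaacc
Cxcl9: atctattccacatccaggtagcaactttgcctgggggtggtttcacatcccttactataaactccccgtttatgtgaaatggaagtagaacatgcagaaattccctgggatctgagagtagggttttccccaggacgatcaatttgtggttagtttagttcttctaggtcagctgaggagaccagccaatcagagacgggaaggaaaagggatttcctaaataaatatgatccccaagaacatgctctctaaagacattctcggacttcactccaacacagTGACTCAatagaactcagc
The motifs were searched on both strands. They were the interferon-stimulated response element core (GAAA, any 2 bases, GAAA), the GAS element TTCNNNGAA, the AP-1 site TGANTCA, the T-box core GGTGTGA and the NF-kB consensus. The Cxcl10 window held 4 matches that did not overlap each other. These were GAAAGTGAAA from 213 to 204 bases before the start, the NF-kB matches GGGAAATTCC from 159 to 150 and GGGACTTCCC from 103 to 94 bases before it, and TGAGTCA from 74 to 68 bases before it. The Cxcl9 window held 1 match, TGACTCA, from 31 to 37 bases after the start. The Cxcr3 and Cxcr6 windows held none. Among the 32851 mouse promoter windows in the same table, 3.44% held the response element core, 4.51% an NF-kB match, 7.81% an AP-1 match, 8.30% a GAS match and 3.98% the T-box core. A match is a run of letters and not a measured site. Sequences that depart from these letters were not counted, so a window with few or no matches can still hold working sites. Whether the matches bear on the levels below was not tested.

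**Figure D1:**
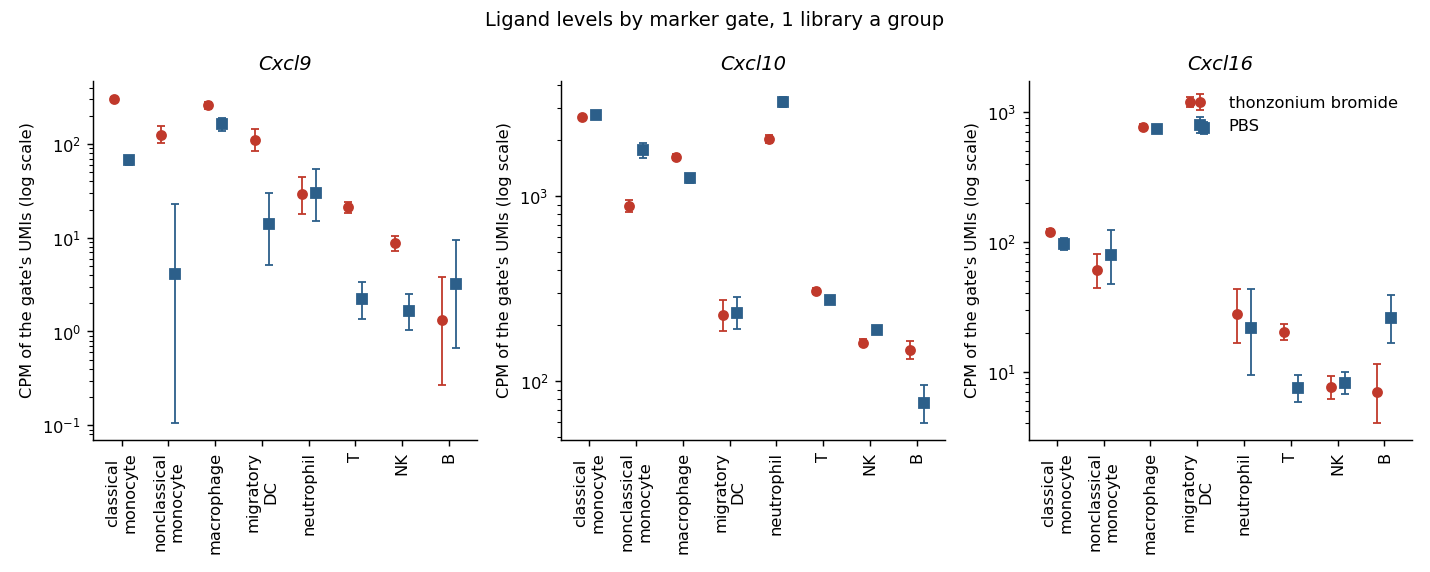
Levels of the 3 ligand genes in CPM (log axis) in the 8 gates with at least 50 cells in each library; points are the single library of each group and bars are exact Poisson 95% intervals for counting error. Cxcl9 stands higher in the treated library in classical monocytes (305 against 67.0 CPM), Cxcl10 is near 2700 CPM there in both libraries, and Cxcl16 is highest in migratory dendritic cells and macrophages.

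The first question was where the ligands were made and whether their levels differed between the libraries. Cxcl9 was higher in the treated library in each monocyte, macrophage and migratory dendritic gate, while Cxcl10, the other CXCR3 ligand, was at nearly the same level in classical monocytes of both libraries and lower in treated neutrophils and nonclassical monocytes. Cxcl16 differed less, and its call in migratory dendritic cells depended on the setting. A gene was called when its ratio was at least 1.5 in either direction and it had at least 50 UMIs over both libraries. Of the 15 pairs of a ligand with a myeloid gate, 13 had that many UMIs. Of those, 5 were called higher, 2 were called lower and 6 were called in neither direction. Of all genes with that many UMIs, 3.14% were called higher and 10.4% lower in classical monocytes, 11.4% and 7.84% in nonclassical monocytes, and 6.67% and 3.79% in macrophages. In migratory dendritic cells 14.0% were called higher and 17.9% lower, in neutrophils 11.8% and 10.6%, and over the pooled myeloid gates 2.42% and 11.8%. Calls in the small gates thus stand against a high background.

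Over the pooled myeloid gates (monocytes, macrophages, the 3 dendritic gates and neutrophils; 1942 treated and 1071 PBS cells), Cxcl9 was at 266 CPM in the treated library and 81.2 CPM in the PBS library. The ratio was 3.27 (95% interval 2.99 to 3.58). Cxcl10 was at 2284 CPM in the treated and 2147 CPM in the PBS library, a ratio of 1.06 (1.04 to 1.09). Cxcl10 thus had many more UMIs than Cxcl9 in both libraries, and the larger ratio was that of the ligand with fewer UMIs. Cxcl16 was at 206 CPM in the treated and 234 CPM in the PBS library, a ratio of 0.878 (0.827 to 0.932). With each gate given the same weight in both libraries, the ratios were 3.38 for Cxcl9, 0.961 for Cxcl10 and 1.18 for Cxcl16, so the pooled directions of Cxcl10 and Cxcl16 turned with the mix of gates.

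Cxcl9 was next taken gate by gate. In classical monocytes, the circulating Ly6c2-positive type recruited to tumours, 3862 Cxcl9 UMIs gave 305 CPM (296 to 315) in the treated library, against 277 UMIs and 67.0 CPM (59.4 to 75.4) in the PBS library. The ratio was 4.55 (4.03 to 5.16). A Cxcl9 UMI was found in 18.0% of treated and 6.65% of PBS classical monocytes. With every cell thinned to 1000 UMIs, which leaves out 22 treated and 29 PBS cells, the shares were 9.93% (8.38 to 11.7) and 2.38% (1.31 to 3.96). The difference was therefore present in the share of cells as well as in the level, at equal depth.

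Cxcl9 was unevenly spread among cells. In treated classical monocytes the 137 cells richest in Cxcl9 held 96.1% of the Cxcl9 UMIs, whereas the 137 richest in Cxcl10 held 57.4% of the Cxcl10 UMIs. The highest single treated cell had 372 Cxcl9 UMIs, 9.63% of the gate's total, and the highest PBS cell had 28. Without the highest cell of each library the ratio was 4.58. A few rich cells thus held most of the transcript, but no single one set the ratio.

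In macrophages, defined here by complement genes, Trem2, Ms4a7 and Mrc1, Cxcl9 was at 258 CPM (235 to 283) in the treated and 162 CPM (139 to 188) in the PBS library. The ratio of 1.60 (1.34 to 1.91) was smaller than that of classical monocytes, and the intervals of the 2 ratios did not overlap. The difference between the ratios was not tested. The thinned share of macrophages with a Cxcl9 UMI was 9.88% in the treated and 9.15% in the PBS library, and without the highest cell of each library the ratio was 1.39, which ends the call. In the PBS library macrophages had the highest Cxcl9 level of the 8 gates with at least 50 cells in each library, and in the treated library classical monocytes did.

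The remaining myeloid gates held few Cxcl9 UMIs. Migratory dendritic cells, the Ccr7-positive state that carries antigen to lymph nodes, had 112 CPM from 52 UMIs in the treated and 13.9 CPM from 6 UMIs in the PBS library, a ratio of 8.03 (3.45 to 22.9). Nonclassical monocytes, the vessel-patrolling type, had 126 CPM from 94 UMIs in the treated and 4.14 CPM from 1 UMI in the PBS library, a ratio of 30.4 with a counting interval of 5.32 to 1213. Neutrophils had 29.1 CPM from 20 UMIs in the treated and 30.0 CPM from 11 UMIs in the PBS library. Type 1 conventional dendritic cells, the cross-presenting type, were only 13 treated and 7 PBS cells, with 80 and 9 Cxcl9 UMIs. Type 2 conventional dendritic cells had 4 Cxcl9 UMIs in 48 treated cells and 73 in 36 PBS cells, all 73 of them in 1 cell, so no level is drawn from that gate.

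The split of classical monocytes by macrophage markers was chosen after values had been seen, since monocytes are known to mature into macrophages in tumours. Treated classical monocytes with 0 macrophage markers had 237 Cxcl9 CPM against 83.3 in PBS cells, those with 1 marker 243 against 44.9, and those with 2 or more 486 against 56.1. The ratios were 2.84 (2.43 to 3.34), 5.42 (4.14 to 7.21) and 8.67 (6.29 to 12.3). Barcodes that tied between the 2 lists, 97 treated and 30 PBS, had 318 and 49.2 CPM. Cxcl9 was thus higher in treated monocytes with no macrophage marker detected too, and the ratio was larger in those with more markers. The treated gate had more macrophage marker RNA, with 496.9 summed CPM over the 6 markers against 304 in the PBS gate, and its part in the gate's ratio was not tested beyond this split. The number of markers detected can depend on depth, and the gate's median was 9310 UMIs in the treated and 5577 in the PBS library. Cells with the same number detected need not have the same marker content.

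**Figure D2:**
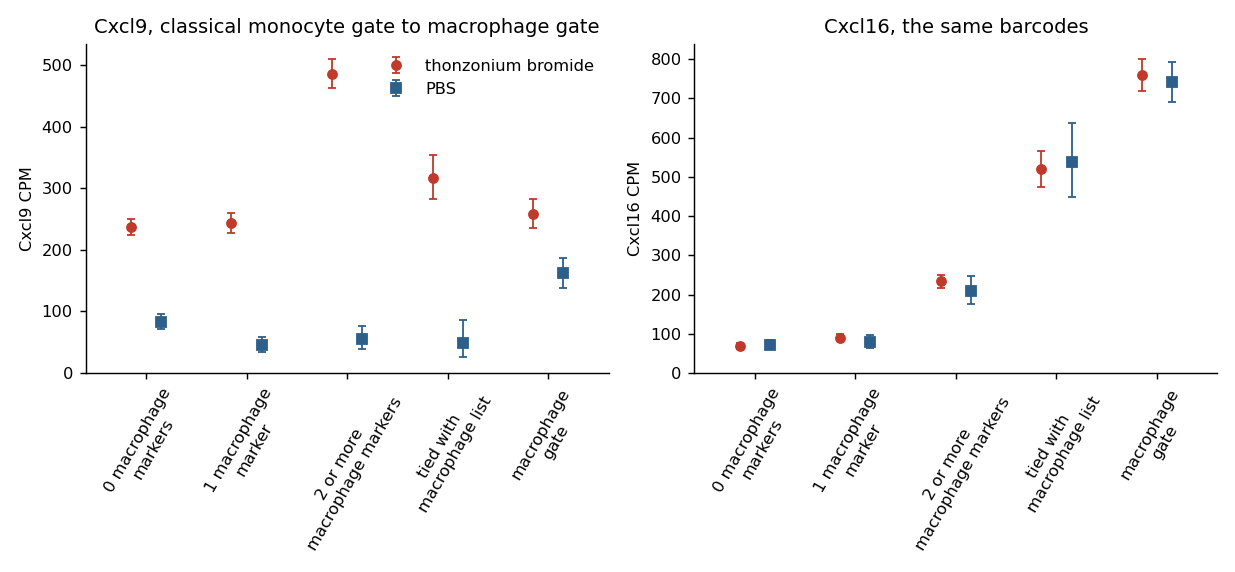
Cxcl9 (left) and Cxcl16 (right) CPM in classical monocytes by the number of macrophage markers detected, in barcodes tied between both lists and in the macrophage gate; bars are exact Poisson 95% intervals. Cxcl9 is higher in the treated library in every class and peaks at 486 CPM in treated monocytes with 2 or more markers, whereas Cxcl16 climbs towards the macrophage gate (760 and 741 CPM) almost alike in both libraries.

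Cxcl10 was abundant in classical monocytes of both libraries. It was at 2672 CPM (2643 to 2700) in the treated and 2754 CPM (2703 to 2805) in the PBS library, a ratio of 0.970 (0.9499 to 0.991). After thinning, 48.5% of treated and 49.0% of PBS classical monocytes had a Cxcl10 UMI. The ligand was thus detected in about the same share of monocytes, and its small ratio passed 1 under 3 of 11 other settings. The number of Cxcl10 UMIs per Cxcl9 UMI was 8.76 in treated and 41.1 in PBS classical monocytes, but 6.29 in treated and 7.70 in PBS macrophages.

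The other gates went both ways for Cxcl10. In macrophages it was at 1625 CPM (1566 to 1686) in the treated and 1246 CPM (1181 to 1314) in the PBS library, a ratio of 1.30 (1.22 to 1.39). That ratio passed the 1.5-fold limit when cells were thinned to 1000 UMIs (1.70) or scaled alike (1.65), and the median depth of the gate was 9982 UMIs in the treated and 3958 in the PBS library. In neutrophils, first responders that are known to make CXCL10 under interferon, it was at 2038 CPM (1933 to 2147) in the treated and 3229 CPM (3048 to 3418) in the PBS library, a ratio of 0.631 (0.584 to 0.682). In nonclassical monocytes it was at 882 CPM (816 to 952) in the treated and 1768 CPM (1605 to 1944) in the PBS library, a ratio of 0.499 (0.441 to 0.565). Cxcl10 was called lower in nonclassical monocytes, and under each of the 10 alternatives run there. It was also called lower in neutrophils, but that call was lost with at least 4 markers (0.730), with TMM scaling (0.688) and with Leiden clusters (0.860). The Leiden neutrophils included a mixed cluster of 7 treated and 155 PBS cells, in which 45% of the gated cells were in the neutrophil gate. A Cxcl10 UMI was found in 30.8% of treated and 60% of PBS neutrophils, and in 26.3% (19.8 to 33.7) and 37.9% (27.7 to 49.0) after thinning. In nonclassical monocytes such a UMI was found in 48 of 112 treated and 24 of 64 PBS cells, and in 21 of 106 and 17 of 58 after thinning. Without thinning, the share of nonclassical monocytes with a UMI was thus not lower in the treated library. The median depth of the gate was 6841.5 UMIs there and 2148 in the PBS library. At equal depth, from few cells, the share was lower in the treated library, as the level was. Migratory dendritic cells had 227 CPM in the treated and 234 CPM in the PBS library, with overlapping intervals.

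Ligand UMIs were also found in lymphoid gates, and whether these cells made them or took them up as free RNA was not tested. In T cells Cxcl10 was at 307 CPM in the treated and 274 CPM in the PBS library, in NK cells at 162 and 190 CPM, and in B cells at 147 and 75.8 CPM. Thinned shares with a Cxcl10 UMI were 11.5% of treated and 15.4% of PBS T cells, 7.27% and 10.4% of NK cells, and 4.33% and 4.87% of B cells. The B gate had median depths of 3716 UMIs in the treated and 3864 in the PBS library, against 9310 and 5577 in classical monocytes. At equal depth the lymphoid shares lay under those of classical monocytes. In the PBS library the T and NK gates held 8.85% and 8.60% of Cxcl10 UMIs, each more than macrophages with 4.66%. Non-immune cells, outside the comparisons, held more than any of these in the PBS library, at 12.7%, and 2.51% in the treated library. Cxcl9 in lymphoid gates was at 21.2 CPM in treated and 2.22 CPM in PBS T cells, with 1 treated cell holding 72 of the 215 UMIs, and at 8.77 and 1.66 CPM in NK cells. Summed macrophage markers in the T gate were at 171 CPM in the treated and 53.1 CPM in the PBS library, and their part in the T gate's Cxcl9 was not tested.

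Cxcl16 had another pattern, led by migratory dendritic cells and macrophages in both libraries. In migratory dendritic cells it was at 1192 CPM (1095 to 1296) in the treated and 752 CPM (673 to 839) in the PBS library, a ratio of 1.59 (1.38 to 1.82). The call was lost without barcodes of mixed lineage, where the levels were 1293 and 1068 CPM (ratio 1.21), with Leiden clusters (1.13), and with haemoglobin, mitochondrial and ribosomal genes left out of the totals (1.495). Summed markers of non-immune cells were at 34.3 CPM in the treated and 856 CPM in the PBS gate, with 0 and 4 of the 6 markers at 50 CPM or more. A Cxcl16 UMI was found in 96.1% of treated and 71.4% of PBS migratory dendritic cells, and in 70.6% (56.2 to 82.5) and 50.9% (36.8 to 64.9) after thinning. The gate holds 51 treated and 56 PBS cells, the thinned intervals overlap, and the own markers of the gate were also higher, at 8039 summed CPM in the treated and 5210 in the PBS library.

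Macrophages were alike in Cxcl16, with 760 CPM (720 to 802) in the treated and 741 CPM (690.5 to 793) in the PBS library, a ratio of 1.03 (0.940 to 1.12). Classical monocytes had 119 CPM (113 to 125) in the treated and 96.3 CPM (87.1 to 106) in the PBS library, a ratio of 1.24 (1.11 to 1.38), which was 1.57 with at least 4 markers. Split by macrophage markers, the monocytes had 68.4, 90.002 and 234 CPM in the treated library and 71.4, 78.8 and 209.5 CPM in the PBS library at 0, 1 and 2 or more markers, with ratios from 0.959 to 1.14 whose intervals all held 1. Cxcl16 thus rose with the number of macrophage markers detected in both libraries and differed little between them at a given number. As the depth of the gate differed, the same number detected need not mean the same marker content. Nonclassical monocytes had 60.3 CPM in the treated and 78.7 CPM in the PBS library, and neutrophils 27.6 and 21.8 CPM, all with overlapping intervals.

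**Figure D3:**
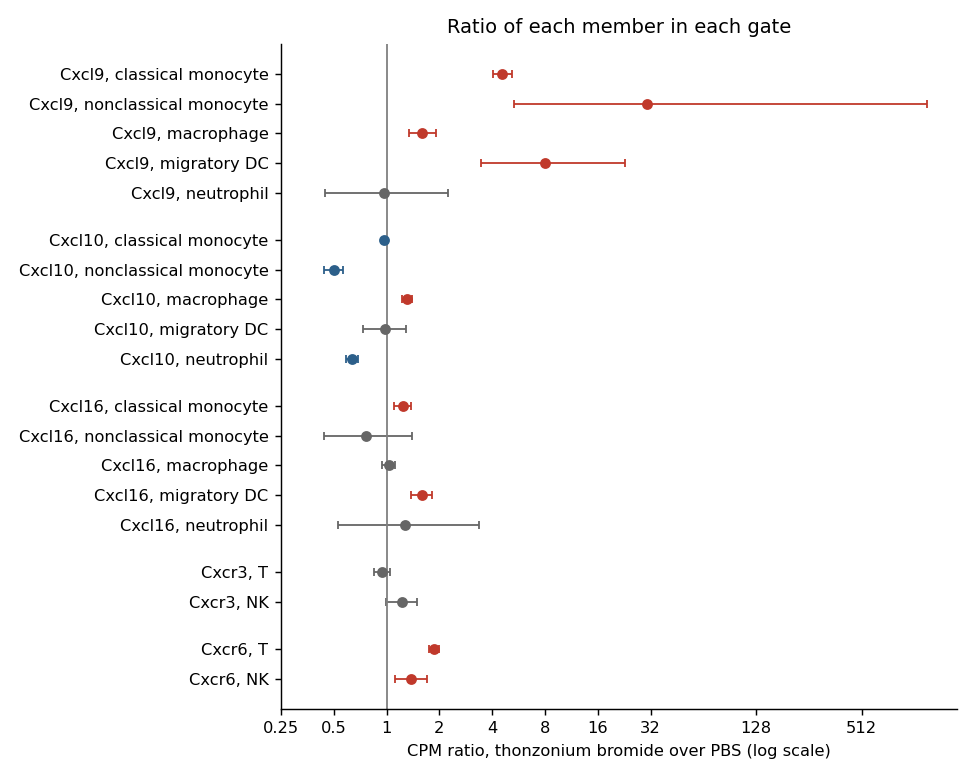
Ratio of CPM, thonzonium bromide over PBS (log axis), for each ligand in 5 myeloid gates and each receptor in the T and NK gates; bars are exact conditional 95% intervals for counting error, red where the interval lies above 1, blue where it lies below 1 and grey where it holds 1. Cxcl9 lies above 1 in 4 of 5 myeloid gates, Cxcl10 lies on both sides, and Cxcr6 but not Cxcr3 lies above 1 in T cells (1.87 and 0.936).

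The gates that held each ligand's UMIs also differed between the libraries. Classical monocytes held 65.7% of Cxcl9 UMIs in the treated and 31.5% in the PBS library, and 64.2% and 38.9% of Cxcl10 UMIs, while holding 24.9% and 9.36% of all UMIs. Of Cxcl16 UMIs, macrophages held 26.8% in the treated and 35.0% in the PBS library, and classical monocytes 30.05% and 17.2%. Over all kept cells Cxcl9 was at 116 CPM in the treated and 19.9 CPM in the PBS library (ratio 5.80), Cxcl10 at 1036 and 663 CPM (1.56), and Cxcl16 at 98.6 and 52.4 CPM (1.88). These ratios over all cells were larger than those over the pooled myeloid gates. Shares of gates are set in part by the sort, the filter and the depth of each library.

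**Figure D4:**
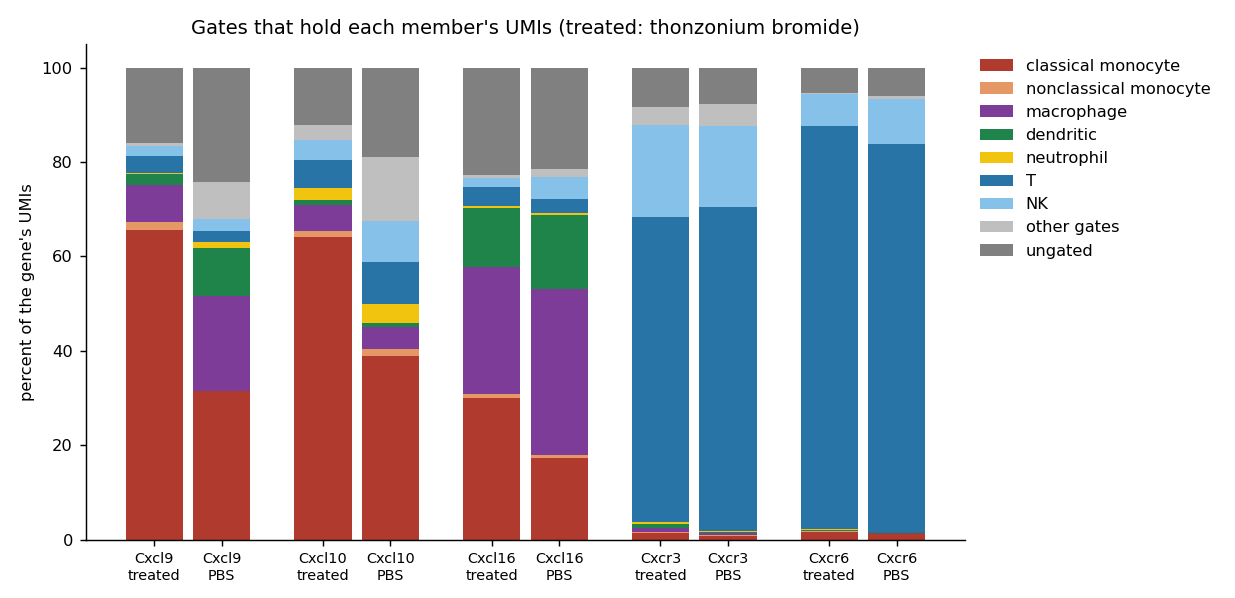
Percent of each member's UMIs held by each gate, in the treated and the PBS library; dendritic means the 3 dendritic gates together, and ungated cells are those with fewer than 3 markers or a tie. Classical monocytes hold 65.7% of treated and 31.5% of PBS Cxcl9 UMIs, and T cells hold 85.4% of treated and 82.1% of PBS Cxcr6 UMIs.

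Classical monocytes with a Cxcl9 UMI more often had a Cxcl10 UMI in both libraries, although the thinned PBS intervals overlapped. In thinned treated classical monocytes, 66.2% (57.5 to 74.1) of cells with a Cxcl9 UMI and 46.6% (43.7 to 49.4) of cells without one had a Cxcl10 UMI. In the PBS library 64.3% (35.1 to 87.2) of 14 such cells and 48.6% (44.4 to 52.8) of the rest did. Without thinning, and so not at equal depth, the PBS shares were 90.2% (76.9 to 97.3) and 62.5% (58.4 to 66.5). The treated shares were then 82.9% (77.5 to 87.4) and 64.9% (62.0 to 67.7). Cxcl16 was found in 20.3% (13.8 to 28.1) of thinned treated classical monocytes with a Cxcl9 UMI and in 7.87% (6.41 to 9.54) of those without. Treated classical monocytes with Cxcl9 thus more often had each of the other ligands, and the thinned PBS intervals overlapped. Other gates had few thinned cells with Cxcl9 and did not all share the direction. Cxcl10 was found in 64.7% of 17 treated macrophages with a Cxcl9 UMI and 40% of those without, but in 23.1% of 13 PBS macrophages with one and 33.3% of those without. It was found in 20% of 5 treated nonclassical monocytes with a Cxcl9 UMI and 19.8% of those without, and in 0 of 10 cells (interval 0% to 30.8%) of the 3 treated dendritic gates with one against 6.86% of those without. Cxcl16 was found in 47.1% of treated macrophages with a Cxcl9 UMI and 50.3% of those without.

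The second question was whether the receptors differed. Most UMIs of both lay in T cells: the T gate held 64.5% of treated and 68.6% of PBS Cxcr3 UMIs, and 85.4% and 82.1% of Cxcr6 UMIs. Cxcr6 was higher in the treated T gate and Cxcr3 was not. Of the 4 pairs of a receptor with the T or NK gate, 1 was called, Cxcr6 in T cells, where 3.07% of all genes with at least 50 UMIs were called higher and 4.62% lower. In the NK gate 2.2% were called higher and 2.66% lower.

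Cxcr3 was at 70.9 CPM (65.8 to 76.3) in treated and 75.7 CPM (70.3 to 81.5) in PBS T cells, a ratio of 0.936 (0.843 to 1.04). A Cxcr3 UMI was found in 34.8% of treated and 33.6% of PBS T cells, and in 6.95% (5.60 to 8.52) and 9.14% (7.66 to 10.8) after thinning. In NK cells Cxcr3 was at 16.3 CPM in the treated and 13.3 CPM in the PBS library, a ratio of 1.22 (0.995 to 1.495). Myeloid gates gave the background, with 1.26 CPM in treated and 2.18 CPM in PBS classical monocytes and 4.53 and 2.74 CPM in macrophages. NK cells thus stood above classical monocytes and macrophages and well below T cells. Summed T markers in the NK gate were at 333 CPM in the treated and 253 CPM in the PBS library. In the T gate they were at 4925 and 4242 CPM. Their part in the NK levels and ratios of Cxcr3 and Cxcr6 was not tested. Plasmacytoid dendritic cells, outside the comparisons, stood above NK cells, at 61.7 CPM in the treated (33 cells) and 53.4 CPM in the PBS library (106 cells). Some other gates, with few Cxcr3 UMIs, had intervals that overlapped those of NK cells. In the PBS library nonclassical monocytes had 8.28 CPM (1.00 to 29.9) and neutrophils 8.18 CPM (1.69 to 23.9). In the treated library migratory dendritic cells had 10.7 CPM (3.48 to 25.0) and B cells 9.63 CPM (6.04 to 14.6).

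Among T subsets, regulatory cells (a Foxp3 UMI and no Cd8a or Cd8b1 UMI) had the highest Cxcr3 level, with 111 CPM (86.0 to 141) in the treated and 121 CPM (102 to 142) in the PBS library. T cells with no coreceptor UMI had 90.7 CPM in the treated and 85.5 CPM in the PBS library. CD8 T cells had 57.2 CPM in the treated and 57.8 CPM in the PBS library, a ratio of 0.988 (0.842 to 1.16), and conventional CD4 T cells 63.1 and 83.9 CPM. The intervals of the 2 libraries overlapped in each of these 4 subsets. Within CD8 T cells, those with a UMI of Gzmf, the gene of the cytotoxic protease granzyme F, had 20.01 CPM in the treated and 33.9 CPM in the PBS library, below the 61.7 and 66.3 CPM of those without.

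**Figure D5:**
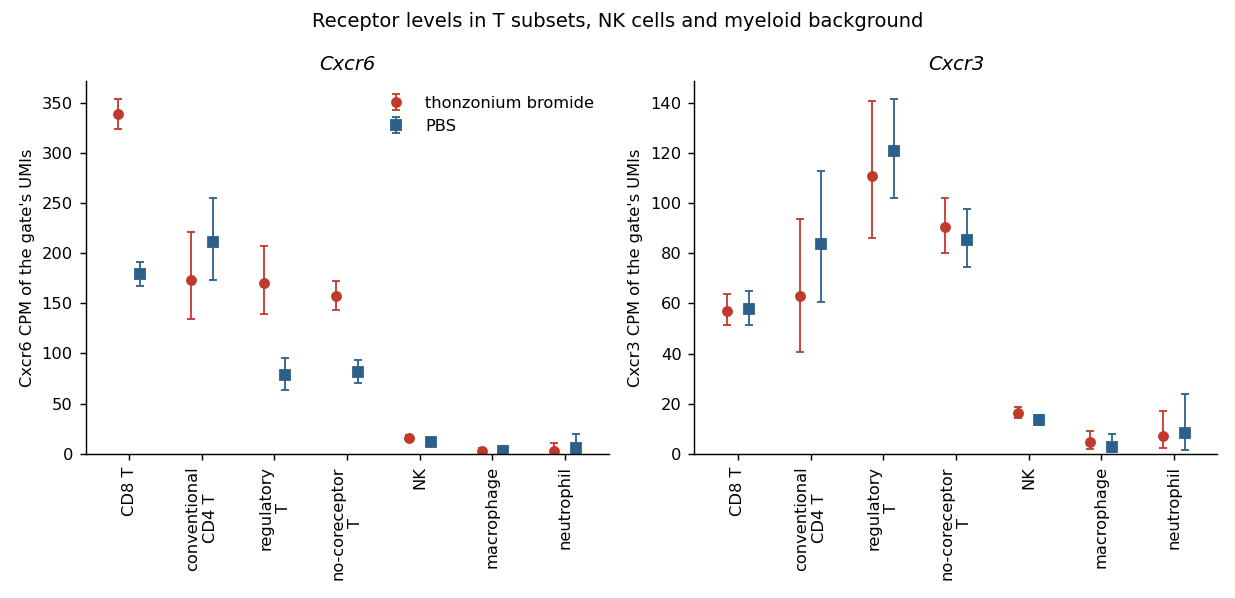
Cxcr6 (left) and Cxcr3 (right) CPM in 4 T subsets, NK cells and 2 myeloid gates that serve as background; bars are exact Poisson 95% intervals. Cxcr6 is higher in treated CD8 (339 against 179 CPM), regulatory and no-coreceptor T cells, while the Cxcr3 intervals of the libraries overlap in each T subset.

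Cxcr6 was at 263 CPM (253 to 273) in treated and 141 CPM (133 to 148) in PBS T cells, a ratio of 1.87 (1.75 to 2.00). A Cxcr6 UMI was found in 52.3% of treated and 32.6% of PBS T cells, and in 20.4% (18.2 to 22.7) and 11.1% (9.503 to 12.9) after thinning. The level and the thinned share thus differed alike. In NK cells Cxcr6 was at 16.05 CPM (14.0 to 18.3) in the treated and 11.7 CPM (9.92 to 13.7) in the PBS library, a ratio of 1.37 (1.11 to 1.70). That ratio passed 1.5 without barcodes of mixed lineage (1.93), after thinning (1.72) and with Leiden clusters (1.58). Macrophages had 2.26 CPM in the treated and 2.74 CPM in the PBS library.

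CD8 T cells, the cytotoxic lineage, carried most of the Cxcr6 UMIs, at 339 CPM (324 to 354) in the treated and 179 CPM (167 to 191) in the PBS library, a ratio of 1.90 (1.75 to 2.05). Regulatory T cells had 171 CPM (139 to 207) in the treated and 78.6 CPM (63.7 to 95.9) in the PBS library, a ratio of 2.17 (1.63 to 2.90), and no-coreceptor T cells 157 and 81.1 CPM, a ratio of 1.94 (1.64 to 2.29). Conventional CD4 T cells had 174 CPM (134 to 221) in the treated and 211 CPM (173 to 254) in the PBS library, a ratio of 0.823 (0.597 to 1.13). Cxcr6 was called higher in 3 of the 4 subsets. Among all genes, 4.34% were called higher and 5.8% lower in CD8 T cells, 4.62% and 5.81% in regulatory T cells, 2.44% and 5.05% in no-coreceptor T cells, and 4.93% and 16.2% in conventional CD4 T cells. The T gate held 629 treated and 540 PBS CD8 cells, and with the same mix of subsets in both libraries the ratio of the whole gate was 1.82.

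The CD8 ratio was smaller among cells alike in Gzmk, the gene of granzyme K, a protease of early effector and memory CD8 T cells. A Gzmk UMI was found in 39.7% (35.9 to 43.7) of treated CD8 T cells, 250 cells, and in 4.44% (2.87 to 6.54) of PBS ones, 24 cells. Those with a Gzmk UMI had 534 Cxcr6 CPM (502 to 566) in the treated and 459 (375 to 556) in the PBS library, a ratio of 1.16 (0.9501 to 1.44). Those without had 237 and 165 CPM, a ratio of 1.43 (1.30 to 1.58). Weighted to the same share of Gzmk-positive cells in both libraries, a setting added after the data had been seen, the CD8 ratio was 1.32. By contrast, CD8 T cells with and without a Gzmf UMI had ratios of 2.02 and 2.05, with 493 against 243 CPM and 320 against 156 CPM. The Cxcr3 ratio under the same Gzmk weighting stayed at 0.988.

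Over the whole T gate, detection of Cxcr6 differed little between cells with and without a Cxcr3 UMI. A Cxcr6 UMI was found in 51.7% (46.9 to 56.5) of treated T cells with a Cxcr3 UMI and 52.5% of those without, and in 34.8% (30.5 to 39.3) and 31.5% of PBS T cells. After thinning the shares were 24.4% and 20.1% of treated and 10.5% and 11.2% of PBS T cells. Single subsets could differ. In PBS no-coreceptor T cells the shares were 33.6% (26.0 to 41.8) and 16.6% (12.5 to 21.4), but 2.63% and 7.18% after thinning. In PBS CD8 T cells they were 44.8% and 51.8%, but 24.3% and 15.5% after thinning. In NK cells a Cxcr6 UMI was found in 13.04% of treated cells with a Cxcr3 UMI and 5.27% of those without, and in 12.4% and 4.75% of PBS cells, without thinning. The number of Cxcr6 UMIs per Cxcr3 UMI was 3.71 in treated and 1.86 in PBS T cells. It was 5.93 in treated and 3.09 in PBS CD8 T cells, and 1.54 and 0.651 in regulatory T cells. In NK cells it was 0.986 in the treated and 0.876 in the PBS library.

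Genes around the axes were listed with earlier results of these data known, so their counts describe them only. Of 12 genes of the interferon signalling that induces Cxcl9 and Cxcl10, all 12 were counted and none was called in T cells, NK cells or classical monocytes. In classical monocytes Irf1, an interferon-induced transcription factor, was at 231 CPM in the treated and 216 CPM in the PBS library. The median log2 ratio of the 12 was 0.06 in classical monocytes, beside -0.05 for all genes counted there. In macrophages 1 of the 12 was called, Ifngr1, a receptor chain for interferon gamma, with 180 CPM in the treated and 119 CPM in the PBS library. In neutrophils Irf1 was called higher, with 570 CPM in the treated and 248 CPM in the PBS library, and Ifngr1 lower, with 125 and 213 CPM. Macrophages thus had 1 of 12 called and neutrophils 2 of 11, where 632 of 6044 and 471 of 2095 of all genes were called. In nonclassical monocytes 2 of 11 were called higher and 1 lower, where 11.4% and 7.84% of all genes were. In migratory dendritic cells 2 of 12 were called higher, where 14.0% of all genes were, and in CD8 T cells 1 of 12, where 4.34% were. In conventional CD4 T cells 5 of 11 were called lower and none higher, where 16.2% of all genes were called lower and 4.93% higher. The median log2 ratio of the 11 was -0.56, beside -0.13 for all genes counted there. Among them, Ifngr1 was at 518 CPM in the treated and 969.8 CPM in the PBS library, and Irf9, a part of the interferon-activated transcription complex, at 97.3 and 154 CPM. The gate held 77 treated and 122 PBS cells.

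Among the genes for other CXCR3 ligands and ligand processing, Cxcl11 was not analysed here. Pf4, a platelet chemokine known to bind a CXCR3 variant in humans, was called higher in classical monocytes, with 37.1 CPM in the treated and 10.6 CPM in the PBS library, and lower in macrophages, with 242 and 443 CPM. Dpp4, a protease that trims CXCR3 ligands, was called lower in classical monocytes, with 33.2 and 63.7 CPM. The sheddases of CXCL16, Adam10 and Adam17, were called in neither direction in classical monocytes, with 68.6 and 91.7 CPM in the treated and 61.2 and 79.1 CPM in the PBS library.

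On the receptor side, 8 of 9 genes of receptor transcription and tissue residency were counted in T cells and none was called. Their median log2 ratio was -0.01, beside -0.06 for all genes counted in the gate. Runx3, a transcription factor of cytotoxic and resident T cells, was at 377 CPM in the treated and 367 CPM in the PBS library, Tbx21, the gene of T-bet, at 52.7 and 51.5 CPM, and Cd69, a retention receptor, at 374 and 449 CPM. None of the 4 egress and homing genes was called in T cells either. Klf2, their activator, was at 257 CPM in the treated and 369 CPM in the PBS library, a ratio of 0.697. Single T subsets had some calls. In conventional CD4 T cells 2 of the 4 egress and homing genes were called higher, where 4.93% of all genes were. Of the residency genes, 1 of 7 was called higher in CD8 T cells (4.34% of all genes). In no-coreceptor T cells 1 of 8 was called higher and 1 lower (2.44% and 5.05%). In conventional CD4 T cells 1 of 5 was called lower (16.2%). In NK cells the egress receptor gene S1pr1 was called higher, with 6.82 CPM in the treated and 2.94 CPM in the PBS library. None of 10 chemokine receptor signalling genes was called in T cells, NK cells or classical monocytes. Among T subsets, 1 of the 10 was called higher in CD8 T cells and 1 lower in conventional CD4 T cells, near the shares of all genes given above. Among residency and egress genes in classical monocytes, Bhlhe40 was called lower, with 54.5 CPM in the treated and 89.5 CPM in the PBS library, Cd69 lower, with 156 and 245 CPM, and Klf2 higher, with 295 and 194 CPM. In migratory dendritic cells, the signalling genes Grk2, a kinase that desensitises such receptors, and Rap1b, a small GTPase of adhesion, were called higher, 2 of 9 counted, where 14.0% of all genes were called higher. Grk2 had 159 CPM in the treated and 81.0 CPM in the PBS library, and Rap1b 444 and 248 CPM.

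The genes most like each member were ranked by Pearson's r of log2(CPM + 10) over 16 points, the 8 gates in both libraries, among 9817 genes. The points share libraries, depth and the contrasts between cell types, so r describes the pattern only. Cxcr3 was most like Gbp10 (r = 0.947), with Cxcr6 next (0.940), then Lat, Ccdc92 and Camk4. Cxcr6 was most like Ptpn13 (0.980), Slc17a6, Crmp1, Bcl11b and Cd3g, the last of which is a T gate marker. Cxcl10 was most like Emilin2 (0.964), Atp6v1e1, Tgm2, Tnfrsf1a and Socs3, and Cxcl16 like Cttnbp2nl (0.979), Tnfrsf11a, Tubb2a, Anxa4 and Rap2b. Cxcl9 was most like Gnai2 (0.913), Tns3, Zfp703, Tollip and Scarf1. The 2 CXCR3 ligands resembled each other less (r = 0.597) than the 2 receptors did.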

How the data were processed

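Each of the 2 libraries, 1 from mice given thonzonium bromide and 1 from mice given PBS, was deposited as a matrix of whole-number UMI counts per gene and barcode. Per the file headers these counts come from Cell Ranger 6.1.2; mm10, Seurat 3.0 and R 3.5.3 are named in the submitters' processing notes. No cell types were used from the files. Barcodes (6724 treated, 7803 PBS) with 200 genes or more and no more than 20% mitochondrial UMIs entered the analysis. No doublet caller was run. Instead, cells with at least 3 markers of another lineage (676 treated, 612 PBS) were left out in an alternative. Cells in no gate numbered 913 treated and 2021 PBS. UMIs were summed by gate and library and scaled to CPM with exact Poisson intervals. Ratios have exact conditional binomial intervals and shares of cells Clopper-Pearson intervals. With 1 library a group no test was run. Levels were described for gates with at least 50 cells in each library, and smaller gates are given by counts, with some exceptions. Levels are also given, with their cell numbers, for CD8 T cells with a Gzmk UMI and for barcodes tied between the monocyte and macrophage lists. The same holds for non-immune cells and plasmacytoid dendritic cells. Genes named were the 5 members, the 5 genes most like each among genes with at least 200 UMIs, and called or abundant genes of each list; other list genes were named after their values were seen. The members and lists were chosen with earlier results of these data known. The splits by macrophage markers, Gzmk and Gzmf were chosen after values were seen. The counting functions were tested on simulated data. Alternatives changed the marker threshold, filters, depth, scaling (TMM factors of edgeR 4.0.16) and gates (Leiden clusters, scanpy 1.11.5 with leidenalg 0.10.2). Each cluster took the name of the commonest gate among its gated cells, and some clusters were mixed. In those named classical monocyte, that gate made up from 39.5% to 95.4% of the gated cells. No cluster was named macrophage or nonclassical monocyte, so the Leiden setting compares partly different cells.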

Additional observations from a re-analysis of the deposited data

Results flagged for a closer look

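The Cxcl10 ratio of thonzonium bromide over PBS went in opposite directions in different gates, and the differences between gates were not tested. It was 1.94 in B cells and 1.30 in macrophages, above 1, and 0.499 in nonclassical monocytes and 0.631 in neutrophils, below 1. In B cells 1 treated cell held 96 of the 336 Cxcl10 UMIs. Cxcl10 was also found in a gate that entered no comparison: non-immune cells, which the CD45 sort should remove, had 1039 CPM in the treated library (25 cells) and 983 CPM in the PBS library (77 cells). Cxcr3 was found in plasmacytoid dendritic cells, also outside the comparisons, at 61.7 CPM in the treated library (33 cells) and 53.4 CPM in the PBS library (106 cells).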

How the results depend on the processing

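No paired analysis was possible because each group has 1 library, and for the same reason no replicate could be left out. The Cxcl9 ratio over the pooled myeloid gates stayed between 3.23 and 3.95, and the Cxcr6 ratio in T cells between 1.82 and 2.24, under all 12 alternatives run for each. The causes of the shifts below were not tested. A gate threshold of 2 markers gave 1.09 for pooled Cxcl10 and 1.01 for classical monocyte Cxcl10, which turned its direction. A threshold of 4 markers gave 3.61 for pooled Cxcl9 and 0.825 for pooled Cxcl16. Without barcodes of mixed lineage, pooled Cxcl10 was 1.04 and NK cell Cxcr6 1.93. Thinned to 1000 UMIs, the pooled ratios were 3.95 for Cxcl9, 0.975 for Cxcl10 (direction turned) and 0.982 for Cxcl16, the T cell ratios 0.751 for Cxcr3 and 2.24 for Cxcr6, and the NK cell ratio of Cxcr6 1.72. With each cell scaled alike, pooled Cxcl10 was 1.01 and T cell Cxcr6 2.13. TMM factors gave pooled ratios of 3.58 for Cxcl9, 1.17 for Cxcl10 and 0.962 for Cxcl16, and 1.06 for classical monocyte Cxcl10 (direction turned). Leiden clusters gave pooled ratios of 3.63 for Cxcl9, 1.10 for Cxcl10 and 1.04 for Cxcl16 (direction turned), and 1.09 for classical monocyte Cxcl10 (direction turned). With the same mix of gates, pooled Cxcl10 was 0.961 and pooled Cxcl16 1.18, both turned. In single gates, Cxcl16 in migratory dendritic cells ranged from 1.13 to 1.73, and macrophage Cxcl9 from 1.39 to 1.83. Requiring 200 UMIs or a fold of 2 lowered the genes called in classical monocytes to 427 and 402, against 1296, and in T cells to 264 and 260, against 806. Depth limits the gates with few UMIs, such as Cxcl9 and Cxcl16 in neutrophils.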
